A study of Mus musculus with 6 samples.

Results

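The 9 complement genes C1qa, C1qb, C1qc, C2, C3, C4b, C3ar1, C5ar1 and Serping1 were examined in mouse cerebral cortex, as the rows that carry these names among 54532 genes. RNA-seq libraries came from mice aged 12 months, 3 labelled Fam69c KO, a knockout of a gene of the FAM69 family of kinase-like proteins, and 3 labelled WT. The labels give no strain, sex or deleted exons, nor whether the libraries are of separate animals, so p-values measure the spread between libraries, which may be technical. The title of the series names stress granules and inflammasome activation, and complement is another arm of innate immunity measured in the same cortex. Every gene is given as FPKM, reads scaled to gene length and to library size, and differences are labelled Fam69c KO minus WT.

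Complement is a cascade of plasma and tissue proteins that tags surfaces for removal. In the classical pathway C1q, built from A, B and C chains, binds a target and its attached proteases cleave C4 and C2, whose fragments form the enzyme that cleaves C3. Small fragments of C3 and C5 signal through the receptors encoded by C3ar1 and C5ar1, and Serping1 encodes C1 inhibitor, which blocks the C1 proteases. In the brain, microglia are the known main source of C1q, and in mice C1q and C3 are known for tagging synapses that microglia remove.

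None of the 9 genes differed between the groups beyond the spread of the libraries. A linear model (limma) was fitted to log2(FPKM + 0.5) for genes that averaged 0.5 FPKM or more, and 0 of the 15694 tested (0%) had a Benjamini-Hochberg adjusted p under 0.05. At an unadjusted limma p under 0.05 there were 599 (3.82%), and 0 of the 5 complement genes in that fit, C1qa, C1qb, C1qc, C4b and Serping1, were among them. The other 4, C2, C3, C3ar1 and C5ar1, lay below 0.5 FPKM and were read from a fit without the filter. In that fit 0 of 32400 genes (0%) had an adjusted limma p under 0.05, and 1214 (3.75%) had an unadjusted limma p under 0.05, with 0 of these 4 among them. With voom on the recovered reads 0 genes (0%) of the filtered set and 1 (0.00309%) of the unfiltered set passed, none of the 9. The 5 genes in the filtered fit were below WT by mean log2 value, as were 52.0% of genes there, and the other 4 were above WT, as were 49.9% in the unfiltered fit. For all 9 genes the libraries of the groups overlapped, where 8.87% of genes in the filtered fit and 7.77% in the unfiltered fit had groups that did not overlap.

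The genes lay at very different levels, on the FPKM scale that allows for length. Over the 6 libraries C1qa averaged 39.2 FPKM, C1qb 37.9 FPKM and C1qc 16.5 FPKM. C4b averaged 5.73 FPKM and Serping1 2.60 FPKM, and then came C3ar1 at 0.494 FPKM, C5ar1 at 0.356 FPKM, C2 at 0.264 FPKM and C3 at 0.119 FPKM. All C1q chains were far above C4b, C2 and C3, the components that follow them in the pathway. Neighbours in this order whose ranges overlapped were C1qa and C1qb, C3ar1 and C5ar1, and C5ar1 and C2. C1qa was above C1qb in 4 of 6 libraries, C3ar1 above C5ar1 in 6 of 6 and C5ar1 above C2 in 5 of 6.

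**Figure D1:**
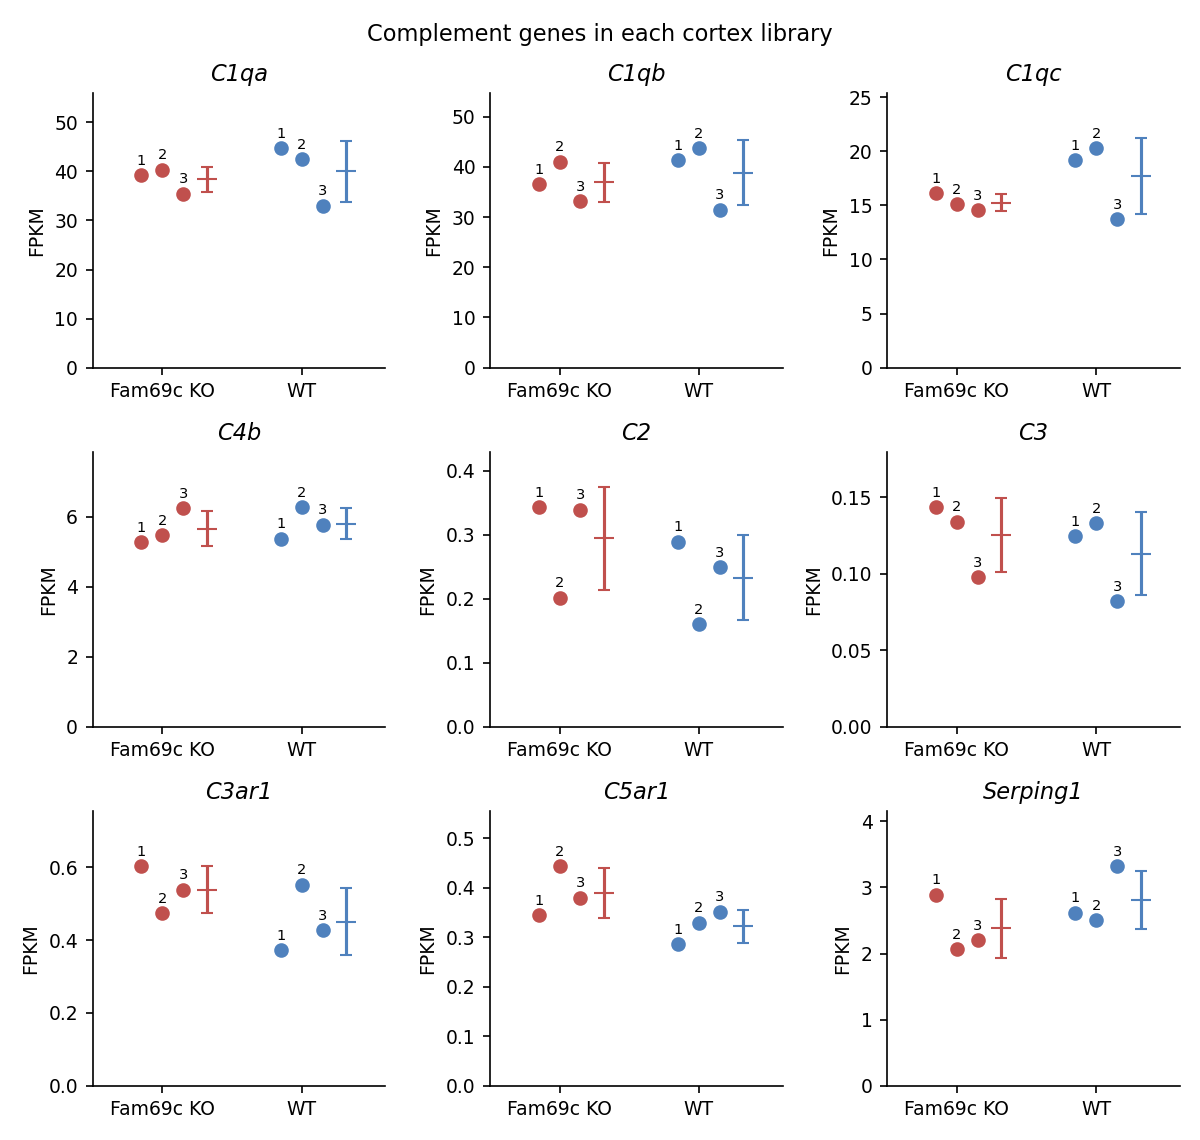
FPKM of each complement gene in each library (points, with the replicate number above), labelled Fam69c KO left and WT right, with the mean and SD of 3 libraries as a bar beside them and every axis starting at 0. The points of the groups overlap in all 9 panels, and WT replicate 3 is the lowest library for C1qa, C1qb, C1qc and C3.

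The libraries and their markers were checked before the comparisons. The reads recovered from the values were 33068481 to 35065884 in the libraries labelled Fam69c KO and 30935326 to 32707769 in WT. The FPKM of all genes summed to 274010, 264066 and 256956 in the libraries labelled Fam69c KO and 273057, 274405 and 259605 in WT. Fam69c RNA read 1.54, 1.84 and 1.42 FPKM in the libraries labelled Fam69c KO and 2.03, 1.57 and 2.08 FPKM in WT, with overlapping groups (log2 fold change -0.19, limma adjusted p = 0.999). The targeted gene's RNA thus did not check the genotype labels. Neuron markers summed to 779 to 875 FPKM in the libraries labelled Fam69c KO and 814 to 832 FPKM in WT, while of 3 hepatocyte markers Serpina1a was listed at 0, Alb had at most 1 read and Apoa2 read 0.824 to 1.40 FPKM in the libraries labelled Fam69c KO and 0.894 to 1.01 FPKM in WT. Markers of striatum, a neighbouring region, stood low in 2 libraries, at 94.8 FPKM in replicate 1 labelled Fam69c KO and 68.3 FPKM in WT replicate 3, against 152 to 193 FPKM elsewhere. Choroid plexus markers summed to 4.38 to 9.78 FPKM in the libraries labelled Fam69c KO and 3.14 to 4.28 FPKM in WT, mostly Ttr, and their part in the values below was not tested.

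C1qa, C1qb and C1qc encode the A, B and C chains, lie side by side on mm10 chromosome 4 within 18675 bases (chr4:136880129-136898803) and are all read from the minus strand. C1qa (ENSMUSG00000036887) and C1qc (ENSMUSG00000036896) are 2851 bases apart, and C1qc and C1qb (ENSMUSG00000036905) 3616 bases apart. Because these neighbours moved together over the libraries, the DNA just upstream of C1qb and C1qc is shown, from RefSeq on GRCm38.p6, minus strand, 5′ to 3′. The C1qb stretch of 250 bases is chr4:136886201-136886450 and the C1qc stretch of 99 bases, which ends where the GENCODE transcript begins, is chr4:136893066-136893164. Capitals mark a match to GAGGAAGT, the letters used for the macrophage factor PU.1, read on the other strand.
C1qb: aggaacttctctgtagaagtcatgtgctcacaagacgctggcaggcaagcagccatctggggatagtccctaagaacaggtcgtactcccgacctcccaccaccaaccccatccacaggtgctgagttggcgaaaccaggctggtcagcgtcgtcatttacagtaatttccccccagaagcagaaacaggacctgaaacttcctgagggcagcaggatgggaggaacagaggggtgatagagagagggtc
C1qc: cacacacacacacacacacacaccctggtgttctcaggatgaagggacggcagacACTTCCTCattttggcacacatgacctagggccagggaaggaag

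RefSeq windows of 250 bases upstream of the start were at hand for 5 of the 9 genes, C1qb, C1qc, C3, C3ar1 and C5ar1. Only 99 bases of the C1qc window, 48 of the C5ar1 window and 246 of the C3ar1 window also lie upstream of the GENCODE start. The rest of these windows lies within the GENCODE gene. The letters GAGGAAGT, searched on both strands, occurred in the C1qc window alone among the 5, beginning 195 bases before the RefSeq start, and in 2.44% of 32817 such windows over the genome. The letters TGANTCA, for AP-1, occurred in the C3ar1 window alone, 22 bases before the start, and in 6.75% of all windows. No match was found in the 5 windows for TCACGTG (the E-box of MITF and TFE factors, 3.13% of all windows), GGGA, N, TTTCC run together (NF-κB, 0.357%), GAAA, NN, GAAA run together (interferon response element, 2.97%) or TTGCGCAA (C/EBP, 0.165%). These are matches of letters and show no binding.

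C1qa read 39.3, 40.4 and 35.4 FPKM in the libraries labelled Fam69c KO and 44.7, 42.5 and 33.0 FPKM in WT. WT held both the highest and the lowest library, so the WT range enclosed the other group. The means were 38.4 ± 2.59 FPKM and 40.0 ± 6.21 FPKM in WT (SD, n = 3 each), a log2 difference of -0.05 (standard error 0.12, limma adjusted p = 0.999). Its 95% interval, -0.33 to 0.23, leaves room for a level 0.796 to 1.17 times that of WT on the scale of FPKM + 0.5. In bulk cortex, fewer microglia and less C1q RNA in each of them cannot be told apart.

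C1qb read 36.6, 41.0 and 33.2 FPKM in the libraries labelled Fam69c KO and 41.3, 43.7 and 31.5 FPKM in WT. Again WT spanned the other group. The log2 difference came to -0.06 (standard error 0.13, 95% interval -0.38 to 0.25, limma adjusted p = 0.999).

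C1qc read 16.1, 15.1 and 14.6 FPKM in the libraries labelled Fam69c KO and 19.1, 20.3 and 13.7 FPKM in WT. Replicates 1 and 2 of WT lay above all libraries labelled Fam69c KO, and WT replicate 3 lay below them. Its log2 difference, -0.19 (standard error 0.14, 95% interval -0.52 to 0.14), was the most negative of the C1q chains and did not pass (limma adjusted p = 0.999). When WT replicate 3 was left out, C1qc differed by -0.36 on the log2 scale (limma unadjusted p = 0.0012, adjusted p = 0.728), C1qa by -0.18 (unadjusted p = 0.0385, adjusted p = 0.754) and C1qb by -0.20 (adjusted p = 0.769). Without both libraries numbered 3, C1qc differed by -0.33 (limma unadjusted p = 0.0036, adjusted p = 0.900). With sample weights and all libraries it differed by -0.30 (limma unadjusted p = 0.0225, adjusted p = 0.510). When WT replicate 2 was left out instead, C1qc differed by -0.085 (limma unadjusted p = 0.565, adjusted p = 1.00), and by -0.13 without WT replicate 1.

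Across libraries the C1q chains ranked much alike. WT replicates 1 and 2 were the highest pair for each of C1qa, C1qb and C1qc, and replicate 3 labelled Fam69c KO and WT replicate 3 were the lowest pair for each. The summed FPKM of the 3 genes was 92.0, 96.5 and 83.2 in the libraries labelled Fam69c KO and 105, 106 and 78.2 in WT. C1qa took 41.8 to 42.7% of this sum in the libraries labelled Fam69c KO and 39.9 to 42.5% in WT. C1qb took 39.8 to 42.5% in the libraries labelled Fam69c KO and 39.3 to 41.1% in WT. C1qc took 15.6 to 17.5% in the libraries labelled Fam69c KO and 17.5 to 19.0% in WT. The ratio of C1qc to C1qa was 0.411, 0.374 and 0.411 in the libraries labelled Fam69c KO and 0.428, 0.477 and 0.415 in WT. It was 1 of 2 ratios computed between chains, beside the shares. On it the groups did not overlap, by a margin of 0.411 against 0.415 between the nearest libraries, and no test was made of the ratio. The other ratio, C1qb to C1qa, overlapped, at 0.932 to 1.02 in the libraries labelled Fam69c KO and 0.924 to 1.03 in WT. The C1qc share overlapped too, at 17.52% in replicate 3 labelled Fam69c KO against 17.51% in WT replicate 3.

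How far C1qc lay below C1qa and C1qb in FPKM depends on the gene length used. The deposited length of C1qc is 1931 bases, all exons of the gene together, while its longest coding transcript in GENCODE M21 has 1203 bases. For C1qa (1040 bases) and C1qb (1088 bases) the 2 lengths are equal. In reads, C1qc had 971 to 1055 in the libraries labelled Fam69c KO and 877 to 1201 in WT, against 1320 to 1400 and 1138 to 1452 for C1qa. Per kilobase of the coding transcript, a choice made after the data were seen, C1qc averaged 26.5 instead of 16.5 FPKM and ran from 0.600 to 0.766 of C1qa. On the same scale C2 averaged 0.386 FPKM and stood above C5ar1, at 0.360 FPKM, so the order of those genes turned.

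Microglia markers gave the level of the cells that make C1q. The 12 markers, none at 0, summed to 95.4, 98.5 and 90.0 FPKM in the libraries labelled Fam69c KO and 92.3, 105 and 90.2 FPKM in WT. The summed C1q level divided by this sum was 0.964, 0.979 and 0.924 in the libraries labelled Fam69c KO and 1.14, 1.02 and 0.867 in WT, so the groups overlapped on this ratio too. Of the 12 markers 3 were above and 9 below WT, with a median log2 fold change of -0.05 (all tested genes, -0.0042), and 0 passed. The 11 markers of disease-associated microglia had 7 members tested, 0 above and 7 below WT, with a median of -0.09, and 0 passed in limma. Of all tested genes 52.0% were below WT. The untested markers averaged below 0.5 FPKM. Of them, Ccl6 (12 to 40 reads) and Itgax (8 to 15 reads) were lower in every library labelled Fam69c KO than in WT. For Cst7 and Clec7a the groups overlapped. In the unfiltered fit 7.77% of genes had groups that did not overlap. One of the 7 tested, Tyrobp, the adaptor of TREM2 and other microglial receptors, read 13.8, 11.3 and 10.05 FPKM in the libraries labelled Fam69c KO and 15.4, 14.4 and 10.6 FPKM in WT. Like C1q, Tyrobp was lowest in the pair of libraries numbered 3 and highest in WT replicates 1 and 2, but it was the single gene of the 7 tested to be so, and none of the 12 microglia markers were. Of these 12, Sall1, Siglech and Gpr34 were highest in WT replicate 3. The part of microglia content in the C1q values was not tested.

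**Figure D2:**
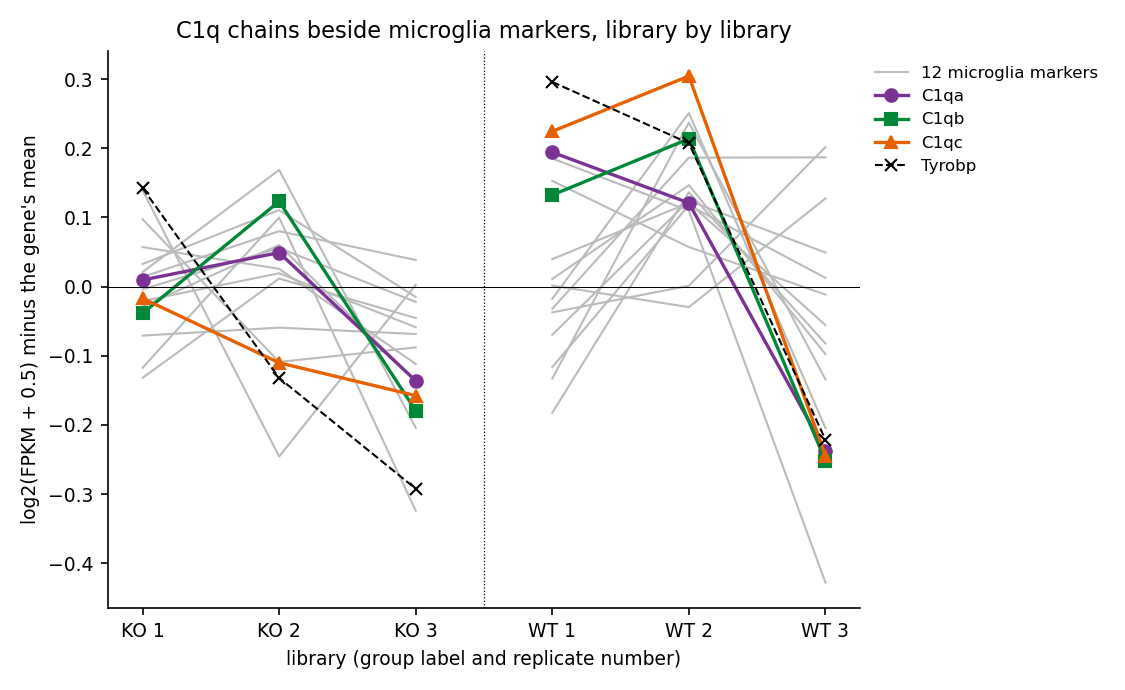
Deviation of log2(FPKM + 0.5) from each gene's own mean over 6 libraries, for C1qa, C1qb, C1qc, Tyrobp and 12 microglia markers (grey), with the libraries labelled Fam69c KO left of the dotted line and WT right of it. Lines only join the values of 1 gene; the C1q chains are highest in WT replicates 1 and 2 and lowest in WT replicate 3, which the grey markers follow only in part.

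C4b encodes complement C4, whose cleaved form binds the tagged surface (ENSMUSG00000073418, mm10 chr17:34728380-34743882, minus strand). It read 5.27, 5.47 and 6.24 FPKM in the libraries labelled Fam69c KO and 5.37, 6.26 and 5.77 FPKM in WT. The groups overlapped almost fully. The means were 5.66 ± 0.509 FPKM and 5.80 ± 0.450 FPKM in WT (SD, n = 3 each), a log2 difference of -0.03 (standard error 0.084, 95% interval -0.23 to 0.17, limma adjusted p = 0.999). Over all 6 libraries its coefficient of variation, 7.62%, was the smallest of the 9 genes, against 11.1% for C1qa and 28.1% for C2. C4b had 955 to 1272 reads a library and C2 19 to 47, so counting error takes a larger part in the value for C2.

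A near-identical copy, C4a, lies on the same chromosome (mm10 chr17:34809092-34823464, minus strand) and is annotated as a processed transcript. It read 0.166, 0.217 and 0.319 FPKM in the libraries labelled Fam69c KO and 0.211, 0.268 and 0.374 FPKM in WT. The aligned transcripts of the pair were identical at 5161 of 5366 bases (96.2%), with a longest identical run of 433 bases, and 16.8% of 100-base windows of C4b held no difference. Reads from such windows may have been assigned to either copy, so the split between C4b and C4a is uncertain. The 60 coding bases that differ most, bases 2761 to 2820 of the C4b transcript in GENCODE M21, show what separates them, with the 13 differing bases in capitals.
C4b: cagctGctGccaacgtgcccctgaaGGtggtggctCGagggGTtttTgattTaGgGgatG
C4a: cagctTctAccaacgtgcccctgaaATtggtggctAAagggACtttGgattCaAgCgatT

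C2 encodes the protease that joins C4 in the enzyme acting on C3 (ENSMUSG00000024371, mm10 chr17:34862604-34898265, minus strand). It read 0.343, 0.201 and 0.339 FPKM in the libraries labelled Fam69c KO, from 26 to 47 reads, and 0.289, 0.160 and 0.249 FPKM in WT, from 19 to 35 reads. Replicate 2 was the lowest library of either group and the groups overlapped. The log2 difference was 0.12 (95% interval -0.17 to 0.40, limma without a filter, adjusted p = 0.959). Of its 3872 exon bases in GENCODE M21, 1656 are shared with Gm20547 on the same strand, which is listed at 0 in all 6 libraries, and 161 with Zbtb12 on the other strand. How reads in shared exons were counted is not given in the sources used here, so the C2 level is uncertain.

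C3, the central component on which the pathways meet (ENSMUSG00000024164, mm10 chr17:57203970-57228136, minus strand), was the lowest of the 9 genes. It read 0.143, 0.134 and 0.0977 FPKM in the libraries labelled Fam69c KO, from 18 to 25 reads, and 0.124, 0.133 and 0.0821 FPKM in WT, from 14 to 21 reads. Counting error alone spans 0.0928 to 0.212 FPKM for the highest library and 0.0449 to 0.138 FPKM for the lowest (exact Poisson 95% intervals), so the libraries could not be told apart at this depth. The log2 difference was 0.03 (95% interval -0.12 to 0.18, limma without a filter, adjusted p = 0.974). At this level the pseudocount of 0.5 understates a change of FPKM itself, and voom on the recovered reads gave log2 differences of 0.16 for C3, 0.35 for C2, 0.28 for C3ar1 and 0.27 for C5ar1, none of which passed.

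The receptors were low. C3ar1, the receptor of the C3a fragment (ENSMUSG00000040552, mm10 chr6:122847138-122856161, minus strand), read 0.603, 0.474 and 0.538 FPKM in the libraries labelled Fam69c KO and 0.372, 0.553 and 0.427 FPKM in WT. WT replicate 2 lay inside the range of the other group. The means were 0.538 ± 0.0647 FPKM and 0.450 ± 0.0926 FPKM in WT (SD, n = 3 each), a log2 difference of 0.13 (95% interval -0.17 to 0.43, limma without a filter, adjusted p = 0.959). C5ar1, the receptor of C5a (ENSMUSG00000049130, mm10 chr7:16246743-16259540, minus strand), read 0.344, 0.443 and 0.380 FPKM in the libraries labelled Fam69c KO and 0.286, 0.330 and 0.352 FPKM in WT. From 23 to 38 reads stood behind each value, and WT replicate 3 lay above replicate 1 labelled Fam69c KO. C5ar1 thus had a log2 difference of 0.11 (95% interval -0.12 to 0.35, limma without a filter, adjusted p = 0.959).

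Serping1, the gene of C1 inhibitor (ENSMUSG00000023224, mm10 chr2:84765387-84775444, minus strand), read 2.89, 2.06 and 2.20 FPKM in the libraries labelled Fam69c KO and 2.62, 2.51 and 3.32 FPKM in WT. Replicate 1 labelled Fam69c KO lay within the WT range and the other 2 libraries below it. The means were 2.38 ± 0.445 FPKM and 2.81 ± 0.441 FPKM in WT (SD, n = 3 each). The log2 difference of these groups was -0.20 (standard error 0.14, 95% interval -0.54 to 0.13, limma adjusted p = 0.999). Without replicate 1 labelled Fam69c KO it was -0.33 (limma unadjusted p = 0.0432, adjusted p = 0.841), while without WT replicate 3 it was -0.097 and without both libraries numbered 3 it was -0.054. The 7 genes listed as fibroblast and meningeal markers, none at 0, summed to 10.2, 9.48 and 9.28 FPKM in the libraries labelled Fam69c KO and 10.2, 10.7 and 10.9 FPKM in WT. Pdgfra was the largest term, at 3.61 to 4.15 FPKM in the libraries labelled Fam69c KO and 3.97 to 4.48 FPKM in WT. The sum thus need not follow the other genes. Of the 7, 5 were tested, 1 above and 4 below WT, as were 52.0% of all tested genes, and 0 passed in limma. Col1a1, Col1a2 and Col3a1 were lower in every library labelled Fam69c KO than in WT, and Lum was higher. In the unfiltered fit 7.77% of genes had groups that did not overlap. Replicate 1 labelled Fam69c KO was the highest of its group for Serping1 and for the sum, but not for Dcn and Col3a1 among the 7. The part of these markers in the Serping1 values was not tested.

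**Figure D3:**
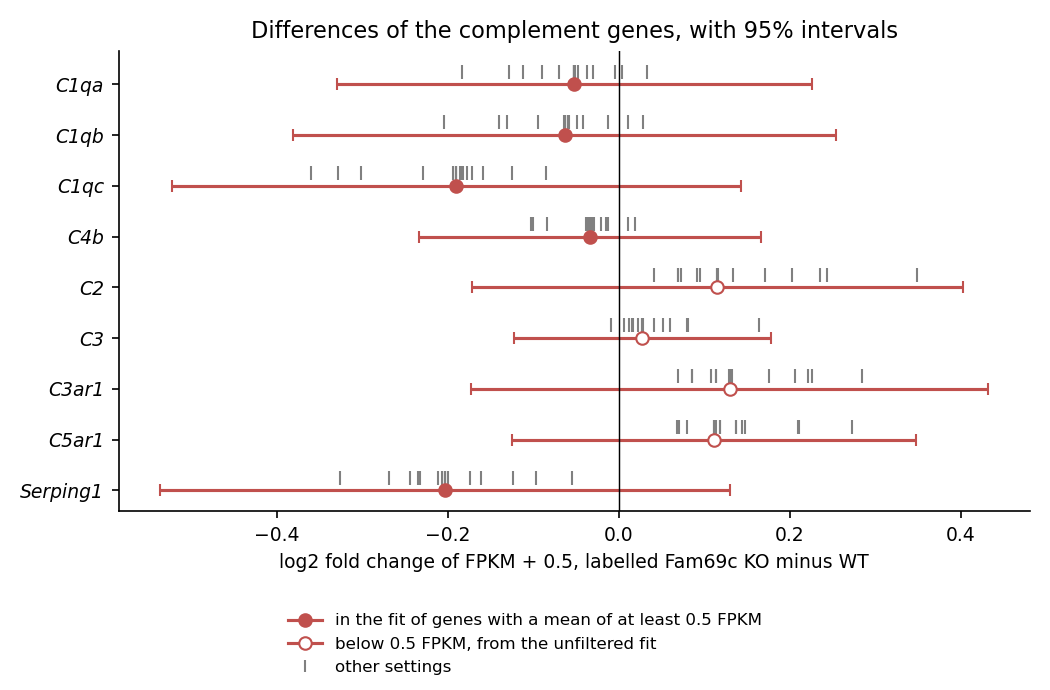
Log2 fold change of FPKM + 0.5, labelled Fam69c KO minus WT, for each complement gene with its 95% interval (filled, filtered fit; open, unfiltered fit), and the value under other settings as grey ticks. All 9 intervals include 0, and grey ticks of C1qa, C1qb, C4b and C3 lie on both sides of 0.

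The rest of the pathway was read from 59 further genes in 6 lists, of which 33 reached 0.5 FPKM. Of these 33, 6 are secreted relatives that share a C1q domain and are not part of the cascade. In limma 0 of the 33 had an adjusted p under 0.05 and 0 an unadjusted p under 0.05, with 20 above (48.0% of all tested genes were) and 13 below WT and a median log2 fold change of 0.02 (all tested genes, -0.0042). By list, among genes that reached 0.5 FPKM, 2 of 2 initiation proteases, 1 of 1 alternative pathway genes, 0 of 2 terminal genes, 11 of 16 regulators, 4 of 6 receptors and 2 of 6 secreted relatives of C1q were above WT.

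Of the genes that initiate the cascade, C1ra, a protease of the C1 complex, read 2.27, 1.27 and 1.39 FPKM in the libraries labelled Fam69c KO and 1.46, 1.41 and 1.42 FPKM in WT. Only replicate 1 labelled Fam69c KO stood above WT. Masp1, a protease of the lectin pathway, averaged 1.66 ± 0.159 FPKM in the libraries labelled Fam69c KO and 1.59 ± 0.0861 FPKM in WT. C1s1 of the same list lay below 0.5 FPKM, with 35 to 61 reads a library. It averaged 0.462 ± 0.135 FPKM in the libraries labelled Fam69c KO and 0.468 ± 0.0279 FPKM in WT. Of the genes of the lectin pathway's recognition proteins, Colec11 averaged 0.302 ± 0.0973 FPKM in the libraries labelled Fam69c KO and 0.306 ± 0.0514 FPKM in WT, and Fcna 0.195 ± 0.0954 FPKM in the libraries labelled Fam69c KO and 0.159 ± 0.0852 FPKM in WT. Mbl1 was listed at 0 in every library, and Mbl2, Fcnb and Colec10 had at most 1, 2 and 7 reads.

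Coverage of the later steps and of the alternative pathway was uneven. Hc, the mouse gene of C5, had 2 to 14 reads per library, and C6 was listed at 0 in all 6 libraries. C7 averaged 0.470 ± 0.0644 FPKM in the libraries labelled Fam69c KO and 0.562 ± 0.128 FPKM in WT, and C8g 1.77 ± 0.546 FPKM in the libraries labelled Fam69c KO and 1.91 ± 0.572 FPKM in WT. Cfp, which encodes properdin, the stabiliser of the alternative pathway enzyme, averaged 7.15 ± 1.86 FPKM in the libraries labelled Fam69c KO and 6.37 ± 1.70 FPKM in WT. Cfb, the alternative pathway counterpart of C2, had at most 5 reads, but 2246 of its 2825 exon bases are shared with Gm20547, so its level is uncertain as well.

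Regulators were the largest list. Clu, the secreted chaperone clusterin, averaged 199 ± 10.9 FPKM in the libraries labelled Fam69c KO and 198 ± 10.9 FPKM in WT. The membrane regulators Cd59a, Cd55 and Cr1l averaged 6.22 ± 0.486, 0.857 ± 0.173 and 1.91 ± 0.143 FPKM in the libraries labelled Fam69c KO and 5.66 ± 1.67, 0.861 ± 0.156 and 1.74 ± 0.0536 FPKM in WT. Csmd1 and Csmd2, membrane proteins with complement control domains, had log2 fold changes of 0.02 and 0.19, and Cd59b -0.22, with 95% intervals that include 0. Srpx2, a secreted protein known in mice to bind C1q at synapses, read 0.666, 0.554 and 0.554 FPKM in the libraries labelled Fam69c KO and 0.701, 0.825 and 0.733 FPKM in WT. Its groups did not overlap, as held for 3 of the 33 tested genes of the 6 lists (9.09%) and 8.87% of all tested genes. Its log2 difference, -0.20 (95% interval -0.48 to 0.08), did not pass (limma adjusted p = 0.999).

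Among receptors, Itgam, a chain of complement receptor 3 on microglia, read 0.710, 0.734 and 0.778 FPKM in the libraries labelled Fam69c KO and 0.816, 0.785 and 1.16 FPKM in WT. Its log2 difference was -0.18 (95% interval -0.50 to 0.13, limma adjusted p = 0.999), the groups did not overlap, by a margin of 0.778 against 0.785 FPKM, and 3450 of its 5024 exon bases are shared with Gm49368 on the same strand. Calr, calreticulin, a chaperone that also binds C1q, averaged 108 ± 4.64 FPKM in the libraries labelled Fam69c KO and 96.7 ± 10.2 FPKM in WT. All 3 libraries labelled Fam69c KO lay above WT for Calr, from 105 to 113 FPKM against 85.2 to 104 FPKM, the last of these 3 genes, and it did not pass (limma adjusted p = 0.999). C1qbp, a mitochondrial protein that binds C1q heads, had a log2 fold change of -0.07. C5ar2, the other C5a receptor, had 14 to 33 reads, with 0.178 ± 0.0871 FPKM in the libraries labelled Fam69c KO and 0.194 ± 0.0651 FPKM in WT. Of the secreted relatives with a C1q domain, which act at synapses, C1ql2 had a log2 difference of -0.51 (95% interval -1.48 to 0.46). Cbln1 and Cbln4 had log2 fold changes of -0.15 and 0.14, with intervals that include 0.

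**Figure D4:**
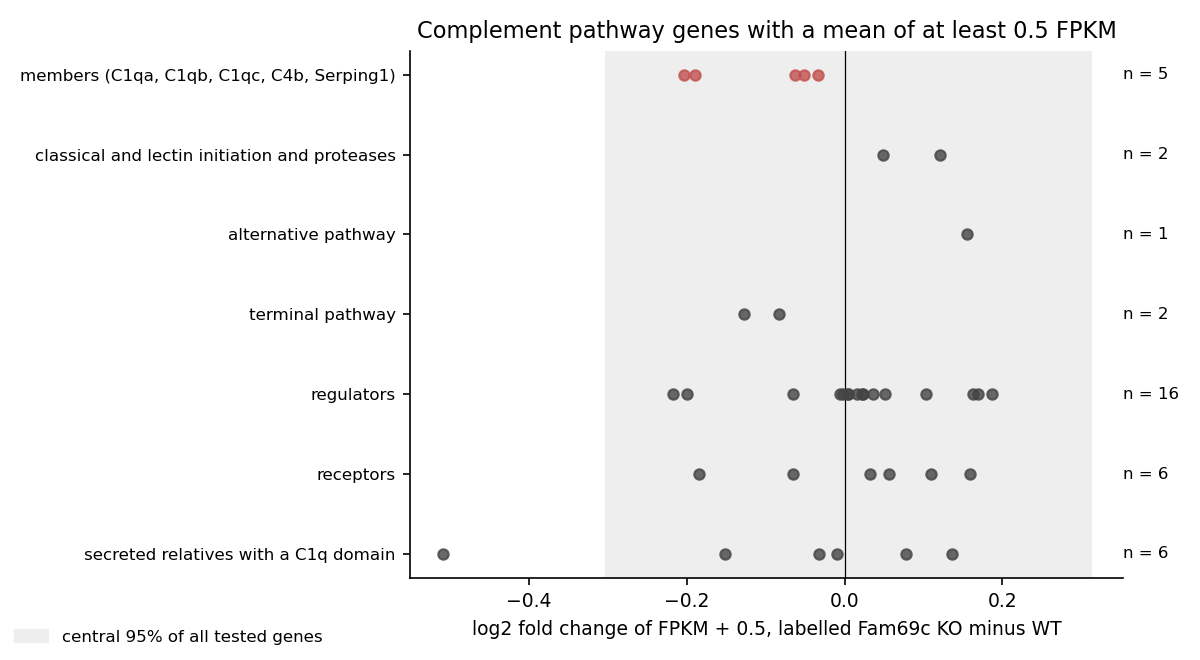
Log2 fold change of FPKM + 0.5, labelled Fam69c KO minus WT, for each complement gene and secreted relative of C1q that averaged 0.5 FPKM or more, by list, with the number of genes at the right. The grey band holds the central 95% of all tested genes, from -0.30 to 0.31. C1ql2, at -0.51, is the single point outside it and is a relative with a C1q domain, not a gene of the cascade.

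The genes whose pattern over the 6 libraries lay closest were found by the root mean square difference of centred log2(FPKM + 0.5), among 12982 protein-coding genes that averaged 0.5 FPKM or more. For the mean of the C1q chains, which varied by 0.17 log2 units, they were Bex4 at 0.033, Nrde2 at 0.035 and Spire2 at 0.040. For C4b, which varied by 0.092, they were Rbm48 at 0.027, Sirt6 at 0.028 and Arhgef6 at 0.033. For Serping1, which varied by 0.19, they were Hsd11b1 at 0.043, Triqk at 0.053 and Cabyr at 0.054. For C3, which varied by 0.052, they were Kifap3 at 0.0080, Cand1 at 0.010 and Rnf34 at 0.014. With 6 libraries and this many genes, some such matches would be found for any pattern.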

How the data were processed

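The authors deposited 1 table of FPKM values per gene and library. Per the submitters' processing notes, Bowtie and the mm10 build were used, and per the labels' protocols Trizol RNA and an Illumina TruSeq kit. The counting tool, its strand setting and the annotation are not stated in them. Gene positions equal GENCODE M21 for 98.1% of rows and all 9 complement genes.

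The remaining steps were computed here. FPKM times gene length gave whole multiples of 1 step for 100% of values above 0 in each library (tolerance 0.001), taken as reads. Intervals on reads cover counting error only. limma 3.58.1 in R 4.3.3 compared the groups on log2(FPKM + 0.5) with a variance trend, two-sided, Benjamini-Hochberg over all genes tested, threshold 0.05, checked on simulated data. Values with ± are mean and SD. Biopython 1.88 aligned the C4b and C4a transcripts, and figures were made in matplotlib 3.10.9.

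The members and lists were chosen with earlier results of these data known. Named were the 9 members, Fam69c, up to 3 genes per pathway list with the smallest p, 10 pathway genes in any case and the 3 closest patterns per target. One gene of this rule is not reported here. Tyrobp, Ccl6, Itgax, Cst7, Clec7a, Ttr, Alb, Apoa2, Serpina1a, C1s1, Mbl1, Mbl2, Fcna, Fcnb, Colec10, Colec11, Sall1, Siglech, Gpr34, Pdgfra, Dcn, Lum, Col1a1, Col1a2, Col3a1, C6, Cfb, Gm20547, Zbtb12 and Gm49368 are outside it and were picked with their values in view.

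Alternatives were other pseudocounts, filters, scalings, variance settings and sample weights, a threshold of 0.1, voom on the recovered reads, a replicate block, and each library left out. Leaving out both libraries numbered 3 and the transcript length were added after the data were seen.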

Additional observations from a re-analysis of the deposited data

How the results depend on the processing

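With 3 libraries a group, the 95% interval of the median gene reached 0.21 log2 units to either side. For C2, C3 and C5ar1, with 14 to 47 reads a library, depth limits what can be seen. Under every alternative 0 of the 9 genes and 0 genes overall in the filtered set had an adjusted p under 0.05, with voom and at a threshold of 0.1 too, and from 426 to 1420 genes had an unadjusted p under 0.05. Without the filter, voom called 1 gene, and limma called 27 without replicate 1 labelled Fam69c KO. No sign changed for C1qc, C2, C3ar1, C5ar1 or Serping1 in any alternative. Leaving out 1 library moved the log2 fold change from -0.18 to 0.033 for C1qa, from -0.20 to 0.028 for C1qb, from -0.100 to 0.019 for C4b, from -0.0092 to 0.060 for C3, from -0.36 to -0.085 for C1qc, from -0.33 to -0.097 for Serping1, from 0.042 to 0.20 for C2, from 0.070 to 0.21 for C3ar1 and from 0.068 to 0.15 for C5ar1. C1qa turned to 0.033 without WT replicate 1 and 0.0035 without replicate 3 labelled Fam69c KO. C1qb turned to 0.028 without WT replicate 2 and 0.011 without replicate 3 labelled Fam69c KO. C4b turned to 0.019 without WT replicate 2 and 0.011 without replicate 1 labelled Fam69c KO, and C3 to -0.0092 without WT replicate 3. The cause was not tested. Deviations of same-numbered libraries correlated at 0.08, 0.01 and 0.21, the last for the libraries numbered 3, and those of other pairs at -0.16 to 0.11. With 3 libraries a group, these values cannot exclude a pairing. The labels do not say what the number marks, so it was not taken to pair the samples in the main fit. With a replicate block 0 genes passed, and 837 had an unadjusted limma p under 0.05 against 599. The block lowered the standard error from 0.117 to 0.066 for C1qa and from 0.134 to 0.060 for C1qb, and raised it from 0.125 to 0.144 for C3ar1.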

Other observations

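Some of the genes viewed were the highest, or the lowest, of each group in the library numbered 3. Cfp read 5.61, 6.63 and 9.22 FPKM in the libraries labelled Fam69c KO and 5.03, 5.80 and 8.28 FPKM in WT. C8g read 1.36, 1.57 and 2.39 FPKM in the libraries labelled Fam69c KO and 1.63, 1.53 and 2.56 FPKM in WT. For both genes, and for C4a, the library numbered 3 was the highest of each group, while for C1qa, C1qb, C1qc, C3 and Tyrobp it was the lowest of each group. C3 rests on 14 to 25 reads a library, too few to tell the libraries apart. The FPKM of all genes also summed lowest, in each group, in the library numbered 3, and the part of this in these orders was not tested. With every library scaled to the same sum, the log2 difference of C1qa was -0.030 (standard error 0.097). The share of all genes with either order was not computed, so neither is read as a trait of complement genes. Cd59a read 3.75 FPKM in WT replicate 3, against 5.68 to 6.64 FPKM in the libraries labelled Fam69c KO and 6.42 and 6.82 FPKM in the other WT libraries.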
